A study of Rattus norvegicus with 28 samples.

Results

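The RT1 complex is the major histocompatibility complex of the rat. The genes described here are those measured by every probe that carries exactly 1 gene symbol, where that symbol starts with RT1- or is Cd74. They comprise 33 of the 36685 probes on the array, 23 for class I genes and 10 for class II genes (Cd74 included). Ciita, the class II master regulator, has no probe under its symbol and was not analysed here, and 4 probes that name an RT1 gene among several symbols are not counted. No probe was left out for low signal. A probe is called dim where its mean over all arrays lies under a log2 intensity of 5.65, the 30th percentile of all probes. This holds for 7 of the 33, namely the class I probes RT1-M1-5, RT1-S2, RT1-O1, RT1-T24-1, RT1-M1-2 and RT1-CE11 and the class II probe RT1-Db2. RT1-M1-2 lay just under that level with a mean of 5.65, and RT1-M1-4 and RT1-DOa lay just above it with a mean of 5.71 each.

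Left ventricle biopsies of 28 male rats were profiled, 1 array per sample. In the first group, 12 double transgenic rats (dTGR) received BAY 41-8543, a stimulator of soluble guanylate cyclase, by gavage at 3 mg/kg/day (treated dTGR). A further 8 dTGR received only the vehicle of Transcutol, Cremophor-EL and water (vehicle dTGR), and 8 wild type Sprague Dawley (SD) rats had no treatment. The dTGR strain is labelled SD-Tg(hAGT)L1623xTg(hREN)L10J, so both dTGR groups carry the human angiotensinogen and renin transgenes on an SD background. The labels give it as a model of heart failure with preserved ejection fraction, with induced hypertension. Gavage ran once daily from 4 to 7 weeks of age, and all hearts were taken at 7 weeks, while the design text speaks of 4 weeks of treatment. SD stands for the strain throughout, and standard deviation is written out.

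Class I molecules sit on nearly all nucleated cells as a heavy chain with beta-2 microglobulin and present peptides made by the proteasome to CD8 T cells. Class II molecules pair an alpha with a beta chain, are found mainly on macrophages, dendritic cells and B cells, and present peptides from endosomes to CD4 T cells. The invariant chain Cd74 occupies the class II groove until RT1-DM (the DMa and DMb chains) exchanges its remnant for a peptide, a step that RT1-DO modulates. RT1-D and RT1-B are the rat counterparts of human HLA-DR and HLA-DQ. In the heart, class II is known mainly from resident and recruited macrophages and dendritic cells.

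Class II promoters are known for a conserved X box and Y box, which the RFX complex and NF-Y bind and which recruit Ciita, and many class I promoters add a kappa B site called enhancer A. Promoters are shown for 2 nearby class II beta chains (RT1-Db1 and RT1-Bb) and 2 class I genes (RT1-CE4 and RT1-CE10), since each pair lay in opposite directions against SD, and for RT1-Da, the alpha chain partner of RT1-Db1. Each runs from 250 bases before to 50 bases after the gene start, 5′ to 3′ on the strand of the gene, in the RefSeq sequence of GRCr8. Capitals mark matches on either strand to the core letters of the X box, ACNGATG, of the Y box, TGATTGG, and of enhancer A, GGGATTCCC. These letters were chosen after the promoters had been seen. No marked matches overlap.
RT1-Db1, chr20:4560113-4560412, minus strand: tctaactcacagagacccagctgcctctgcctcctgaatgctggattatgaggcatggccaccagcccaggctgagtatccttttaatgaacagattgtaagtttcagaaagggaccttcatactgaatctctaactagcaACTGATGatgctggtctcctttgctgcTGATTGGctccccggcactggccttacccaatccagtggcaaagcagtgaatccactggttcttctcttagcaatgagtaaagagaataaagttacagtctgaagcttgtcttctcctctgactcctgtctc
RT1-Bb, chr20:4604069-4604368, minus strand: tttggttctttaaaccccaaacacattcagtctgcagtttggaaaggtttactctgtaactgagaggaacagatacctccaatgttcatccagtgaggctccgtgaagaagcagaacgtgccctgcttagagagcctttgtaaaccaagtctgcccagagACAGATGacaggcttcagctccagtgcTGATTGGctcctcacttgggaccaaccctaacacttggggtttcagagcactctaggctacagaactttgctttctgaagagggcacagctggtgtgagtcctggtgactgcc
RT1-Da, chr20:4515165-4515464, plus strand: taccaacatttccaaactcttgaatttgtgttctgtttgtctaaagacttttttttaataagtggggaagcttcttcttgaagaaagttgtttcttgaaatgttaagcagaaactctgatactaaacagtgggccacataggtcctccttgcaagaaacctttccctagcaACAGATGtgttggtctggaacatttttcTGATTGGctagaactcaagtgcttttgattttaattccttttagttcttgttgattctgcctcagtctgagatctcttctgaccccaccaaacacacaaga
RT1-CE4, chr20:3509107-3509406, minus strand: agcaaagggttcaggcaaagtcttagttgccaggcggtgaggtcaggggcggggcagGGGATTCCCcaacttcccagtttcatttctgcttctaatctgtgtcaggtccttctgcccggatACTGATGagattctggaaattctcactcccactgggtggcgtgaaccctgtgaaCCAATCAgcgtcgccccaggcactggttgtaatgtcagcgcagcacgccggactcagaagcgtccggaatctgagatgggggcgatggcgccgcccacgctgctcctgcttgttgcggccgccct
RT1-CE10, chr20:3384930-3385229, minus strand: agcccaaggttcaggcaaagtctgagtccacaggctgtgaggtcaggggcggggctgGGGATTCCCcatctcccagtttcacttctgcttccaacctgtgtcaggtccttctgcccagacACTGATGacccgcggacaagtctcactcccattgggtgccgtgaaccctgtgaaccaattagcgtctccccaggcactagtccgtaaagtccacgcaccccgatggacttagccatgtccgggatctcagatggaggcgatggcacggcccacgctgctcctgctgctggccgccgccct

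A promoter of this kind was found for 31 of the 33 members. The X box letters were in 6 of 9 class II and 8 of 22 class I promoters, against 10.2% of all 33469 rat promoters of the same length. The Y box letters were in 8 of 9 class II promoters (all but Cd74) and 11 of 22 class I promoters, against 7.06% of all. The enhancer A letters were in 3 class I promoters (RT1-CE4, RT1-CE10 and RT1-CE11), in 0 class II promoters, and in 0.365% of all. RT1-Db1 and RT1-Bb, which differed from SD in opposite directions, both held the X box and Y box letters, at 48.9% identity over the aligned promoters. For RT1-Db1 the identity was 45.8% with RT1-Da and 51.8% with RT1-Db2. The identity of unrelated promoters aligned in this way was not computed, so these values show no shared sequence by themselves. The promoters of RT1-CE4 and RT1-CE10 were 82.7% identical, and the Y box letters were in RT1-CE4 and not in RT1-CE10. Since the letters were chosen with the promoters seen, the shares of members beside all promoters are no independent comparison. A match of letters is a description of the reference sequence and not a bound site.

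The deposited values are intensities on a linear scale, and all levels below are their log2. Array medians of intensity lay between 99.5 and 107. Tnni3, the cardiac troponin I gene that marks cardiomyocytes, was among the bright probes in every group, with means of 15.06 in treated dTGR, 15.10 in vehicle dTGR and 15.31 in SD. Treated replicate 3 stood apart from the other treated arrays. It had the highest level among treated arrays for 9 of the 10 class II probes (all but RT1-Db2), and the highest summed intensity of 11 macrophage genes (39300, against 17400 to 27200 in the other treated arrays) and of 9 dendritic cell genes (1990, against 1380 to 1670). It also had the highest sum of 10 T and natural killer cell genes (9210, against 6170 to 7950) and of 4 fibroblast genes (77100, against 45000 to 72100), and the lowest of 3 cardiomyocyte genes (169000, against 178000 to 222000). Its sum of 4 B cell genes lay within the others (331, against 306 to 414). Their part in the class II values was not tested. Differences were fitted with limma over all probes and arrays, are given as log2 ± SE with the adjusted p, and were called at an adjusted p under 0.05.

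Vehicle dTGR and SD ventricles differed in RT1 genes in both directions. Of the class II probes, 6 of 10 (60%) were called, 1 higher and 5 lower in vehicle dTGR, and of the class I probes 6 of 23 (26.1%), 4 higher and 2 lower. Over all probes on the array 9.21% were called, 4.56% higher and 4.65% lower. Among probes that were not dim, 5 of 9 class II and 6 of 17 class I probes were called, beside 12.9% of all. Both shares over all probes include probes with no gene symbol, while every member has 1. The median difference was -0.48 over the class II probes and 0.00 over the class I probes, beside 0.00 over all probes. The median size of the difference without its sign was 0.54 for class II, 0.28 for class I and 0.20 for all probes. Vehicle and SD arrays did not overlap for 3 members, RT1-Db1 (higher in vehicle dTGR), RT1-Bb and RT1-DMb (lower), as for 2.01% of all probes. In these bulk biopsies fewer cells of a type and less RNA per cell cannot be told apart.

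**Figure D1:**
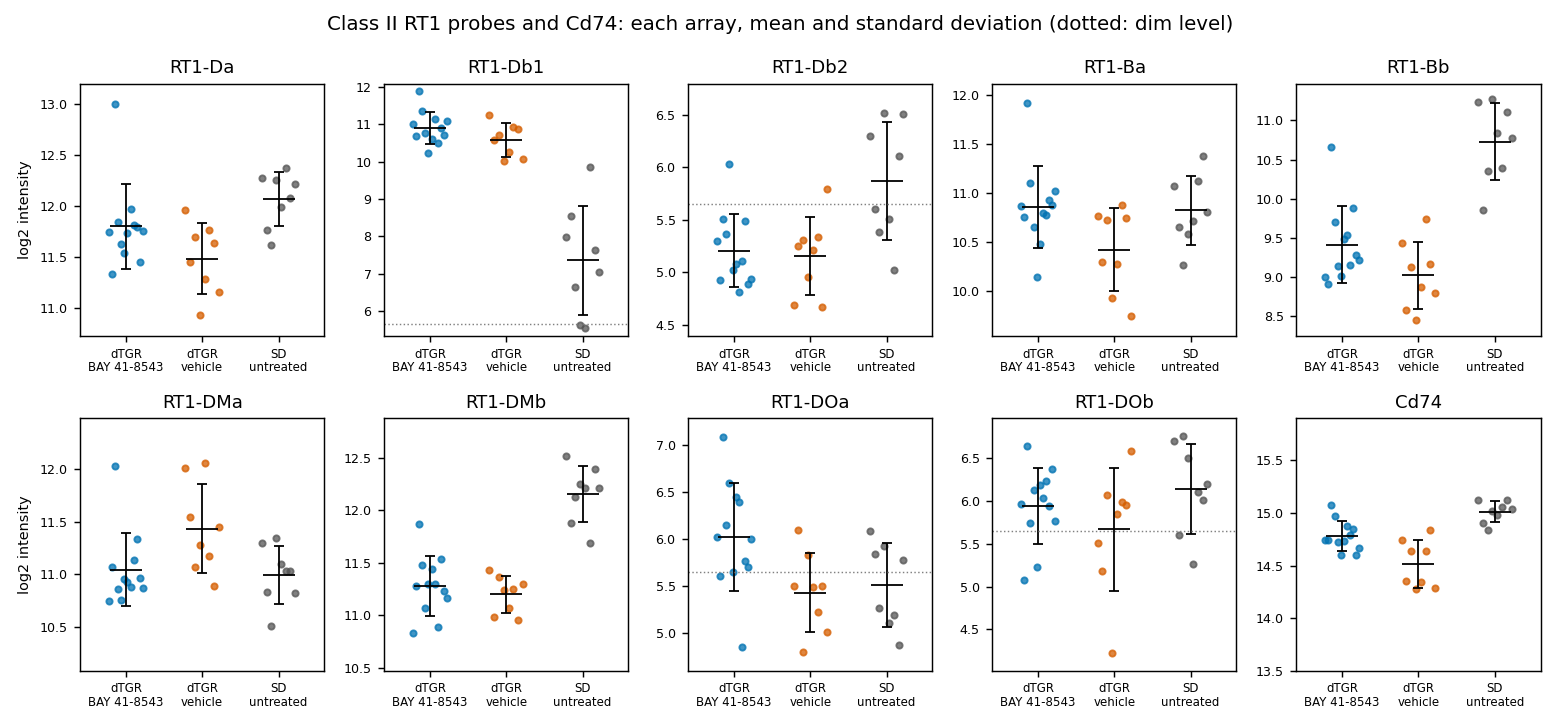
Log2 intensity of the 10 class II probes, 1 panel per gene, 1 point per array, with treated dTGR, vehicle dTGR and SD from left to right. Lines give each mean and standard deviation, and the dotted line is the dim level of 5.65. The SD arrays of RT1-Db1 spread from 5.53 to 9.85 and all lie under both dTGR groups, while those of RT1-Bb and RT1-DMb lie above the vehicle dTGR arrays.

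RT1-Db1 (probe 17756758) encodes a beta chain of RT1-D. Its lowest, median and highest levels were 10.23, 10.83 and 11.89 in treated dTGR, 10.01, 10.64 and 11.26 in vehicle dTGR, and 5.53, 7.33 and 9.85 in SD. Every dTGR array lay above every SD array. RT1-Db1 rose by 3.23 ± 0.40 in vehicle dTGR against SD (9.39-fold, adjusted p = 1.67e-06) and by 3.55 ± 0.36 in treated dTGR against SD (11.8-fold, adjusted p = 9.02e-08). The SD rats also differed most among themselves at this probe, with levels of 7.99, 8.53, 6.63, 5.63, 5.53, 9.85, 7.62 and 7.05 in replicates 1 to 8. That range is 19.9-fold, with a standard deviation of 1.46, beside 0.44 in treated and 0.44 in vehicle dTGR. The SE given above come from 1 spread shared by the 3 groups, although the groups differ in spread at this probe. Both calls against SD were kept in all 38 settings. SD replicates 4 and 5 lay under the level that marks a dim probe. Level at the RT1-Db1 probe and its binding to another allele cannot be told apart, since the labels give no RT1 haplotype. RT1-Db2 (probe 17756750), a further beta chain, was dim over all arrays. Its group means were 5.21 in treated dTGR, 5.15 in vehicle dTGR and 5.87 in SD, so its folds are bounds.

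RT1-Db2 fell in vehicle dTGR against SD (-0.72 ± 0.23, at least 1.15-fold lower, adjusted p = 0.0408) and in treated dTGR against SD (-0.66 ± 0.21, at least 1.14-fold lower, adjusted p = 0.049). The call against SD in vehicle dTGR was lost in 12 of the 35 other settings that kept this dim probe, 9 of them the omission of SD replicate 1, 4, 7 or 8 or of vehicle replicate 1, 2, 4, 5 or 7, with adjusted p between 0.0545 and 0.107. In treated dTGR it was lost in 23 of these 35 settings, with adjusted p between 0.0512 and 0.127. Those included the omission of SD replicate 1, 2, 4, 7 or 8, of vehicle replicate 2, 3, 4, 5 or 6, or of treated replicate 1, 2, 4, 6, 7, 8, 9, 11 or 12. RT1-Da (probe 17753138) encodes the alpha chain that pairs with these beta chains. Its levels were 11.34, 11.76 and 13.00 in treated dTGR, 10.93, 11.54 and 11.96 in vehicle dTGR, and 11.62, 12.15 and 12.37 in SD, with overlap between all groups. RT1-Da fell by 0.59 ± 0.17 in vehicle dTGR against SD (adjusted p = 0.0224), and the call was lost without vehicle replicate 4 (adjusted p = 0.0598) or 8 (0.052). The alpha chain and the main beta chain of RT1-D thus differed from SD in opposite directions in vehicle dTGR. In treated dTGR RT1-Da differed from SD by -0.27 and was not called.

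RT1-Bb (probe 17756767) encodes the beta chain of RT1-B. Its lowest, median and highest levels were 8.91, 9.25 and 10.66 in treated dTGR, 8.45, 9.0 and 9.74 in vehicle dTGR, and 9.86, 10.81 and 11.27 in SD. Vehicle arrays all lay below the SD arrays, and treated arrays overlapped them. RT1-Bb fell by 1.71 ± 0.22 in vehicle dTGR against SD (3.27-fold lower, adjusted p = 4.27e-06) and by 1.32 ± 0.21 in treated dTGR against SD (2.49-fold lower, adjusted p = 5.93e-05). Its partner alpha chain RT1-Ba averaged 10.86 ± 0.42 in treated dTGR, 10.42 ± 0.43 in vehicle dTGR and 10.82 ± 0.35 in SD (standard deviation, n = 12, 8 and 8). RT1-Ba was not called, with differences of -0.40 ± 0.19 for vehicle dTGR against SD (adjusted p = 0.229) and 0.04 for treated dTGR against SD.

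RT1-DMb (probe 17756818) encodes the beta chain of the peptide exchange factor DM. It had levels of 10.83, 11.29 and 11.87 in treated dTGR, 10.96, 11.24 and 11.43 in vehicle dTGR, and 11.69, 12.21 and 12.52 in SD (lowest, median and highest). It fell by 0.96 ± 0.12 in vehicle dTGR against SD (1.95-fold lower, adjusted p = 2.3e-06) and by 0.88 ± 0.11 in treated dTGR against SD (adjusted p = 2.71e-06). Its partner RT1-DMa averaged 11.05 ± 0.35 in treated dTGR, 11.44 ± 0.42 in vehicle dTGR (standard deviation), with a median of 11.03 in SD. RT1-DMa had a difference of 0.44 ± 0.17 in vehicle dTGR against SD (adjusted p = 0.106), which was called without vehicle replicate 7 (adjusted p = 0.044) or treated replicate 3 (0.0434). It was also called without vehicle replicates 6 and 7 together, and with the brightest probe per gene above the 30th percentile. The chains of the DO modulator, RT1-DOa and RT1-DOb, were near the dim level, with group means between 5.43 and 6.14, and neither was called in any comparison.

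Cd74 (probe 17723564) was the brightest member, at the 99.5th percentile of all probes. Its levels were 14.60, 14.74 and 15.08 in treated dTGR, 14.28, 14.50 and 14.84 in vehicle dTGR, and 14.84, 15.03 and 15.12 in SD. The highest vehicle array and the lowest SD array were equal at 2 decimals, and the treated arrays lay between and overlapped both. Cd74 fell by 0.50 ± 0.08 in vehicle dTGR against SD (1.41-fold lower, adjusted p = 4.66e-05). It fell by 0.23 ± 0.07 in treated dTGR against SD (adjusted p = 0.0429, 11 of 12 arrays below the SD mean). That second call was lost in 16 of 38 settings with adjusted p between 0.0521 and 0.106, among them the omission of SD replicate 1, 4, 5, 6, 7 or 8 or of treated replicate 1, 2, 5, 6, 7, 9, 11 or 12.

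Among the class I genes of the RT1-C/E region, which holds many closely related heavy chain genes, probes differed in both directions. Values of these near-identical genes are uncertain as to which copy a probe reads, and cross-hybridization was not tested. RT1-CE4 (probe 17756290) had levels of 8.45, 9.15 and 9.63 in treated dTGR, 6.98, 8.27 and 9.47 in vehicle dTGR, and 9.13, 9.72 and 10.41 in SD. Vehicle replicate 6 was the vehicle array that overlapped SD. RT1-CE4 fell by 1.48 ± 0.24 in vehicle dTGR against SD (2.8-fold lower, adjusted p = 5.76e-05). In treated dTGR against SD it fell by 0.72 ± 0.22 (adjusted p = 0.0405), a call lost in 14 settings with adjusted p between 0.05 and 0.105. Those included the omission of SD replicate 1, 3, 4, 5, 7 or 8 or of treated replicate 3, 6, 7, 8, 10, 11 or 12.

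RT1-CE10 (probe 17752725) had levels of 6.44, 7.29 and 8.21 in treated dTGR, 5.66, 6.84 and 7.73 in vehicle dTGR, and 3.86, 5.30 and 6.06 in SD. Its promoter and that of RT1-CE4 were the closest of the aligned pairs, and the only class I pair aligned. Treated arrays all lay above the SD arrays, and vehicle arrays overlapped them. The SD mean lies under the dim level, so folds are bounds: RT1-CE10 rose by 1.58 ± 0.30 in vehicle dTGR against SD (at least 2.12-fold, adjusted p = 0.000425) and by 2.02 ± 0.27 in treated dTGR against SD (at least 2.88-fold, adjusted p = 6.49e-06). RT1-CE12 rose by 0.67 ± 0.15 (adjusted p = 0.00352) and 0.70 ± 0.14 (adjusted p = 0.00123) in the same order of comparisons. Its levels were 9.61, 10.08 and 10.31 in treated dTGR, 9.48, 10.03 and 10.58 in vehicle dTGR, and 8.66, 9.43 and 10.03 in SD. The dTGR groups shared most of their range and overlapped the upper SD arrays.

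**Figure D2:**
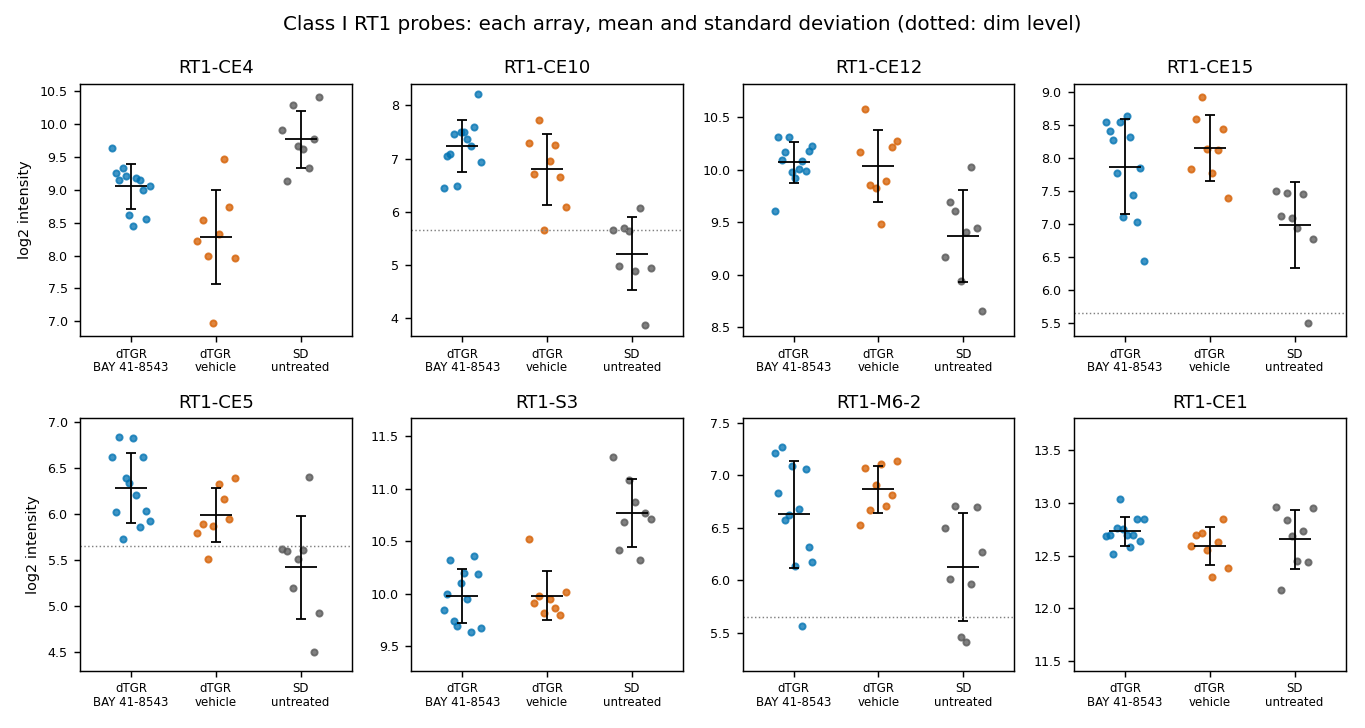
Log2 intensity of 8 class I probes (the 7 called in a comparison and RT1-CE1), 1 point per array, with treated dTGR, vehicle dTGR and SD from left to right and lines at the mean and standard deviation. RT1-CE10 lies higher in both dTGR groups and RT1-CE4 and RT1-S3 lie lower, while RT1-CE1 overlaps in full, with medians of 12.70, 12.61 and 12.71.

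RT1-CE15 rose by 1.17 ± 0.31 in vehicle dTGR against SD (2.25-fold, adjusted p = 0.0112). Its levels were 6.44, 8.06 and 8.64 in treated dTGR, 7.40, 8.13 and 8.93 in vehicle dTGR, and 5.51, 7.12 and 7.51 in SD, and vehicle replicate 8 was the vehicle array within the SD range. For treated dTGR against SD the difference was 0.88 ± 0.28 (adjusted p = 0.0554), called without treated replicate 6, 10 or 12 (adjusted p from 0.0141 to 0.0396). With every array kept, it was called among probes above the 30th percentile, above the median, and with the brightest probe per gene. RT1-CE5 averaged 6.28 ± 0.38 in treated dTGR, 5.99 ± 0.29 in vehicle dTGR and 5.42 ± 0.56 in SD (standard deviation). It rose by 0.86 ± 0.20 in treated dTGR against SD (at least 1.45-fold, adjusted p = 0.00594). In vehicle dTGR its difference from SD was 0.57 ± 0.22 (adjusted p = 0.12), called without SD replicate 6 (adjusted p = 0.0297). RT1-CE1, the brightest class I probe, averaged 12.73 ± 0.14 in treated dTGR, 12.59 ± 0.18 in vehicle dTGR and 12.65 ± 0.28 in SD (standard deviation) and was not called, with a difference of -0.06 ± 0.10 in vehicle dTGR against SD (adjusted p = 0.809).

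RT1-S3, a nonclassical class I gene, had levels of 9.64, 9.97 and 10.36 in treated dTGR, 9.80, 9.93 and 10.52 in vehicle dTGR, and 10.32, 10.74 and 11.30 in SD. Both dTGR groups overlapped only the lowest SD arrays. RT1-S3 fell by 0.78 ± 0.13 in vehicle dTGR against SD (1.72-fold lower, adjusted p = 0.000109) and by 0.79 ± 0.12 in treated dTGR against SD (adjusted p = 3.79e-05). RT1-M6-2, in the M region of nonclassical genes, rose by 0.74 ± 0.23 in vehicle dTGR against SD (adjusted p = 0.0363). Its levels were 5.56, 6.65 and 7.27 in treated dTGR, 6.53, 6.86 and 7.13 in vehicle dTGR, and 5.41, 6.14 and 6.71 in SD. That call was lost in 8 of 38 settings, each the omission of 1 array (SD replicate 2, 4, 5 or 6, or vehicle replicate 2, 4, 5 or 8), with adjusted p between 0.0562 and 0.0872.

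The treatment comparison asks which of these levels BAY 41-8543 changed in dTGR. Of the class II probes 1 of 10 was called (Cd74, higher in treated dTGR), while limma called 0 of 23 class I probes, where 2 had an unadjusted p under 0.05. Over all probes 2.51% were called, 1.25% higher and 1.26% lower. Among probes that were not dim, 1 of 9 class II and 0 of 17 class I probes were called, beside 3.53% of all. The median difference was 0.30 for class II probes and 0.10 for class I probes, beside -0.01 for all, and 9 of 10 class II probes lay above 0 (all but RT1-DMa). These 10 probes are not separate observations, since several varied together among treated arrays. Treated replicate 3 had the highest treated level for 9 of the 10 (all but RT1-Db2). Cd74 rose by 0.26 ± 0.07 in treated against vehicle dTGR (1.2-fold, adjusted p = 0.0398, 12 of 12 treated arrays above the vehicle mean). This call was lost in 14 of 38 settings, with adjusted p between 0.0504 and 0.12. They include the omission of vehicle replicate 2, 4, 5 or 8 or of treated replicate 1, 2, 3, 4, 8, 9 or 10, a prior without the intensity trend, median centring, and a fit of the compared groups alone. Without treated replicate 3, which stood apart, the difference was 0.24 (adjusted p = 0.0645).

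RT1-CE4 lay 0.77 ± 0.22 higher in treated dTGR than in vehicle dTGR, and was just short of a call (adjusted p = 0.0503). It was called in 11 of 38 settings, with a difference of 1.04 (adjusted p = 0.000948) without vehicle replicates 6 and 7, which had the 2 highest vehicle levels of 9.47 and 8.74. Leaving out vehicle replicate 6 alone gave 0.94 (adjusted p = 0.00413) and replicate 7 alone 0.83 (adjusted p = 0.0265). It was also called without SD replicate 2 or 8 or treated replicate 6, 7 or 11 (adjusted p from 0.0402 to 0.0489). With every array kept, it was called among probes above the 30th percentile, above the median, and with the brightest probe per gene. Leaving out the highest vehicle arrays lowers the vehicle mean, and so enlarges this difference by construction. Over the 38 settings the difference for RT1-CE4 ran from 0.58 to 1.04, with adjusted p up to 0.145. RT1-DMa differed by -0.39 ± 0.15 (adjusted p = 0.211) and was called without treated replicate 3 (-0.48, adjusted p = 0.0476). It was also called without vehicle replicates 6 and 7 together. RT1-Db1, RT1-Bb and RT1-DMb, the class II probes that differed most from SD, differed between treated and vehicle dTGR by 0.32 ± 0.36 (adjusted p = 0.801), 0.39 and 0.08, and none was called. The SE of RT1-Db1 comes from 1 spread shared by the 3 groups. That spread includes the SD rats (standard deviation 1.46, beside 0.44 in each dTGR group), which are not compared here. Over the 38 settings, a fit of the compared groups alone among them, its limma adjusted p ran from 0.491 to 0.886.

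Treated dTGR and SD ventricles differed in 5 of 10 class II probes (50%, 1 higher and 4 lower) and 5 of 23 class I probes (21.7%, 3 higher and 2 lower), beside 6.54% of all probes (3.59% higher, 2.95% lower). Among probes that were not dim, 4 of 9 class II and 5 of 17 class I probes were called, beside 9.18% of all. The treated and SD arrays did not overlap for RT1-Db1 and RT1-CE10, as for 1.38% of all probes. Of the 33 members, 9 were called in both comparisons with SD, 3 in vehicle dTGR only (RT1-M6-2, RT1-Da and RT1-CE15) and 1 in treated dTGR only (RT1-CE5). Both comparisons use the same SD arrays, which favours shared calls for any probe. No such count over all probes is given here to set beside the 9. Called in no comparison were 20 members, 16 of class I and 4 of class II. The class II ones are RT1-Ba, RT1-DMa, RT1-DOa and RT1-DOb. The class I ones are RT1-CE1, RT1-CE3, RT1-CE11, RT1-N2, RT1-N3, RT1-S2, RT1-O1, RT1-T24-1, RT1-T24-2, RT1-T24-3, RT1-M1-2, RT1-M1-4, RT1-M1-5, RT1-M10-1, RT1-M3-1 and RT1-M5. The differences of these class I genes ran from -0.67 (RT1-M1-5) to 0.44 (RT1-CE11) in vehicle dTGR against SD and from -0.69 (RT1-O1) to 0.93 (RT1-CE11) in treated dTGR against SD, and the probes at these ends are dim. RT1-O1 was called lower in treated dTGR than in SD without SD replicate 6 (adjusted p = 0.0439) or 8 (0.0375), and RT1-N3 higher without treated replicate 9 (adjusted p = 0.0386). RT1-N3 was also called among probes above the median and with the brightest probe per gene above the 30th percentile.

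**Figure D3:**
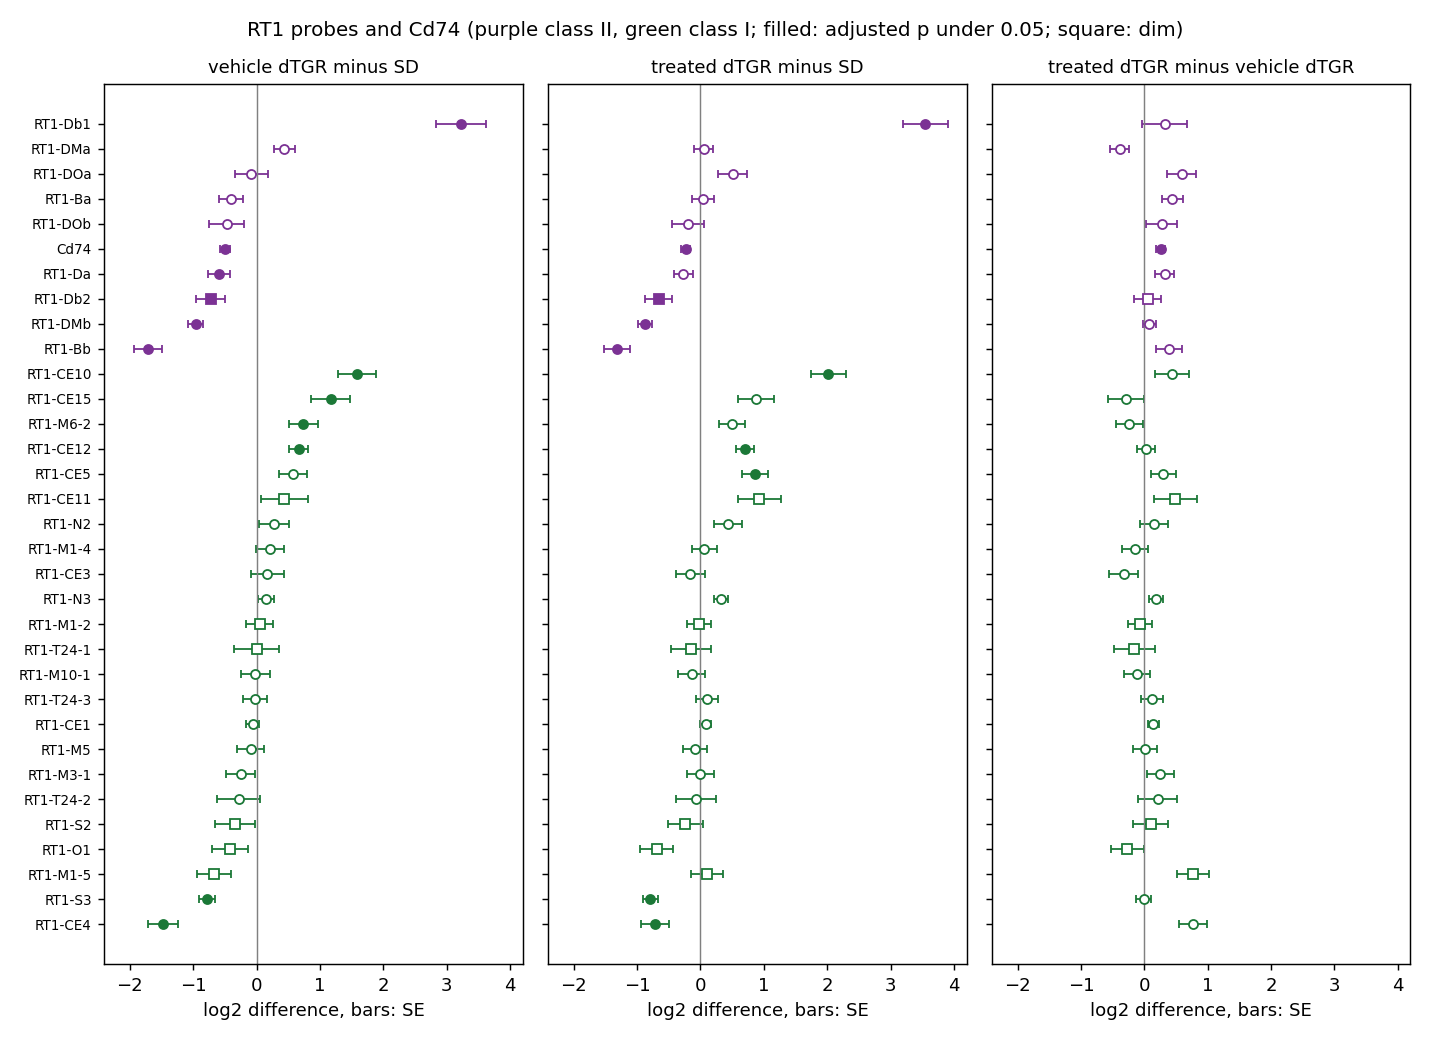
Log2 difference with its SE (bars) for every member in the 3 comparisons, class II in purple above class I in green, filled where the adjusted p was under 0.05, square where the probe is dim. RT1-Db1 (3.23 and 3.55) and RT1-CE10 lie to the right of 0 against SD, and RT1-Bb, RT1-DMb and RT1-CE4 lie to the left.

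Class II genes were then compared with Cd74 array by array within each group, over 5 pairs and 3 groups (15 relations, Benjamini-Hochberg adjusted, exact permutation of 8 arrays or 100000 resamples of 12). For 9 of the 15 the adjusted Pearson p was under 0.05. Fewer had an adjusted Spearman p under 0.05. In treated dTGR it was 0.078 for RT1-Db1 with Cd74 and 0.0795 for RT1-Bb with Cd74. RT1-Da followed Cd74 with r of 0.81 in treated dTGR, 0.86 in vehicle dTGR and 0.85 in SD (permutation adjusted p of 0.0161, 0.0248 and 0.037). Spearman's rho was 0.81, 0.85 and 0.75 (adjusted p of 0.0223, 0.042 and 0.0795). Without the 2 arrays farthest from the median of the gene named first in the pair (here RT1-Da) the SD value was 0.30, so in SD the relation rests on those arrays, and the values in treated and vehicle dTGR were both 0.84. RT1-Db1 followed Cd74 with r of 0.81 in treated dTGR and 0.89 in vehicle dTGR (permutation adjusted p of 0.0161 and 0.0216), and with r of 0.24 in SD (permutation adjusted p of 0.61). Without the 2 farthest arrays these were 0.54, 0.87 and 0.11, so the value in treated dTGR rests in part on those arrays. For RT1-Db1 with Cd74, Spearman's rho was 0.63, 0.91 and 0.40 (adjusted p of 0.078, 0.0223 and 0.383). RT1-Bb with Cd74 gave r of 0.82 in treated dTGR, 0.78 in vehicle dTGR and 0.70 in SD (permutation adjusted p of 0.0161, 0.0463 and 0.0927), rho of 0.59, 0.80 and 0.59 (adjusted p of 0.0795, 0.0634 and 0.185), and r of 0.63, 0.85 and 0.71 without the 2 farthest arrays. RT1-Db1 with RT1-Bb gave r of 0.78 in treated dTGR, 0.80 in vehicle dTGR and -0.46 in SD (permutation adjusted p of 0.0248, 0.0376 and 0.33), with rho of 0.59, 0.90 and -0.38 (adjusted p of 0.0795, 0.0228 and 0.386). Without the 2 farthest arrays its r was 0.41, 0.68 and -0.43, so the value in treated dTGR rests in part on those arrays. RT1-DMb with Cd74 gave r of 0.60 in treated dTGR, 0.10 in vehicle dTGR and 0.42 in SD (permutation adjusted p of 0.0648, 0.831 and 0.349), rho of 0.49, 0.02 and 0.57 (adjusted p of 0.155, 0.964 and 0.187), and r of 0.35, 0.64 and 0.85 without the 2 farthest arrays. None of the adjusted p of that pair was under 0.05. The difference between groups in these correlations was not tested, and each point pair shares an array.

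**Figure D4:**
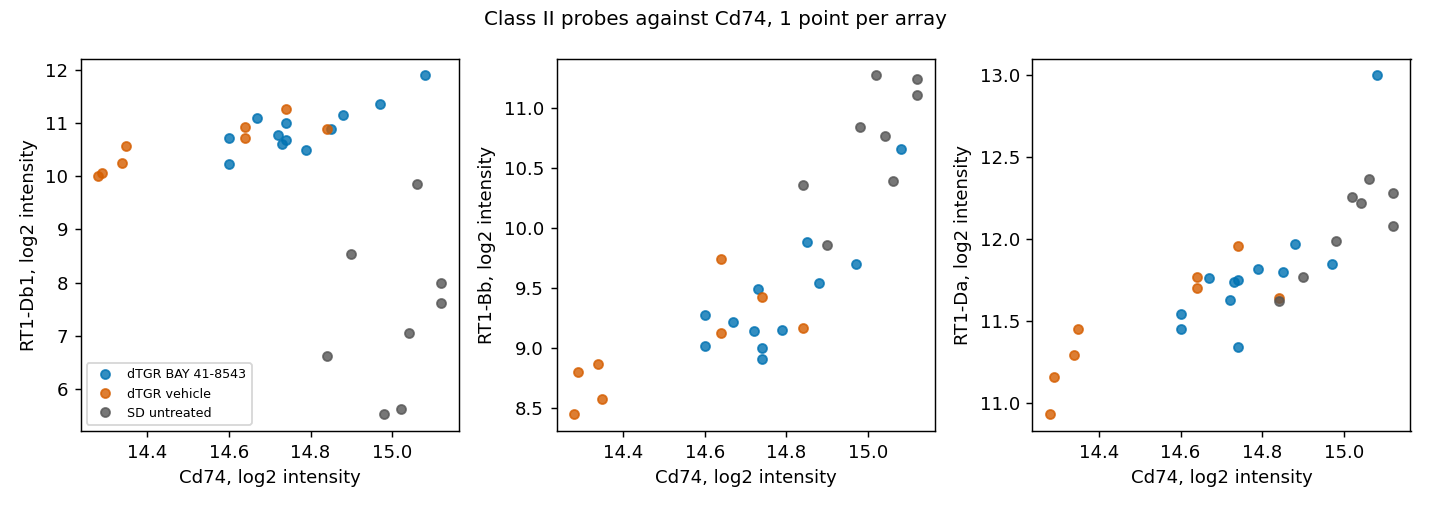
Log2 intensity of RT1-Db1, RT1-Bb and RT1-Da (vertical axes) against that of Cd74 (horizontal axes), 1 point per array, coloured by group. In the 12 treated and 8 vehicle dTGR arrays RT1-Db1 climbs with Cd74 (r of 0.81 and 0.89). Over the 8 SD arrays r was 0.24 and Spearman's rho 0.40, and the difference between groups was not tested.

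The RT1 genes lie on chromosome 20, and the gene table holds 368 other genes between them, 108 with a probe and 82 of those not dim. Vehicle dTGR differed from SD in 17 of the 82 (20.7%, 7 higher and 10 lower), beside 12.9% of all probes that were not dim. The 3 with the most different values were Psmb9 (an immunoproteasome subunit, -1.24 ± 0.14, adjusted p = 5.06e-07), Rnf39 (1.24 ± 0.25, adjusted p = 0.00104) and Ier3 (0.77 ± 0.19, adjusted p = 0.00852). Treated dTGR differed from SD in 10 of the 82 (12.2%, beside 9.18%), and from vehicle dTGR in 3 of the 82 (3.66%, beside 3.53%). The shares over all probes include probes with no gene symbol, while each region gene was read at its brightest probe. They are therefore not like for like, and whether the region exceeds other named genes was not tested. Psmb9, which lies next to RT1-DMb in gene order, had group means of 10.23 in treated dTGR, 9.72 in vehicle dTGR and 10.96 in SD. It was called in all 3 comparisons, lower in vehicle dTGR and in treated dTGR (-0.73 ± 0.13, adjusted p = 0.000309) than in SD, and higher in treated than in vehicle dTGR (0.51 ± 0.13, adjusted p = 0.0272).

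**Figure D5:**
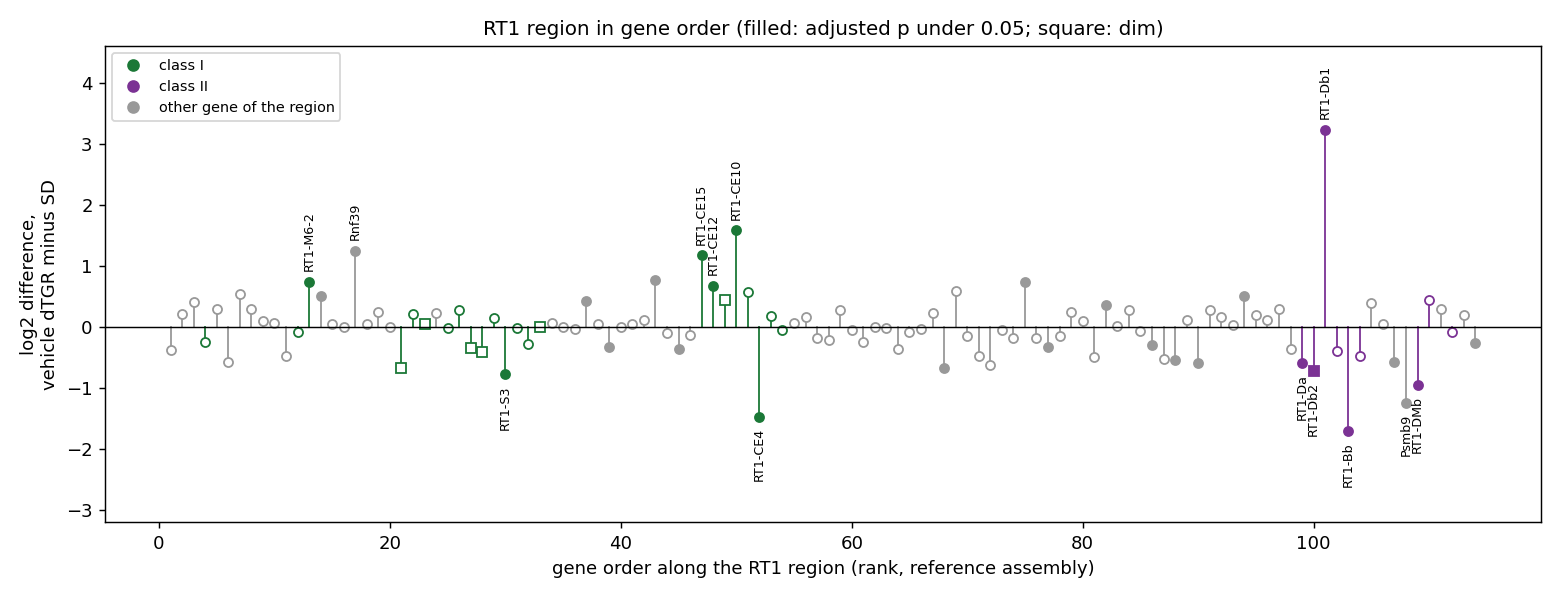
Log2 difference of vehicle dTGR minus SD (vertical axis) for the RT1 genes and the other genes of the region in their order (horizontal axis), filled where the adjusted p was under 0.05, square where the probe is dim. Differences in both directions lie close together, as for RT1-Db1 (3.23) and RT1-Bb (-1.71).

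Genes that load peptides were read beside the members, at the brightest probe per gene. None of the genes counted in this paragraph was dim. Of all probes that were not dim, 12.9% were called in vehicle dTGR against SD. In treated against vehicle dTGR 3.53% were called. These shares include probes with no gene symbol. Of 13 class I loading genes with a probe, 3 were lower and 0 higher in vehicle dTGR against SD: Psmb9, Tap1 (peptide transporter, -0.58 ± 0.15, adjusted p = 0.0124) and Psme1 (proteasome activator, -0.52 ± 0.17, adjusted p = 0.0453). Of 10 class II loading and transcription genes, 3 were higher and 0 lower, namely the endosomal proteases Ctsl (1.02 ± 0.12, adjusted p = 6.82e-07) and Lgmn (0.36 ± 0.07, adjusted p = 0.000633) and the class II ubiquitin ligase Marchf1 (0.49 ± 0.15, adjusted p = 0.0393). Against vehicle dTGR, treated dTGR had Ctsl lower (-0.59 ± 0.11, adjusted p = 0.00375). Of 14 genes of interferon gamma signalling, a main inducer of both classes, 4 were higher in vehicle dTGR than in SD, Jak2 by 0.79 ± 0.17 among them (adjusted p = 0.00205). A further 3 were lower, such as the targets Gbp5 (-0.83 ± 0.19, adjusted p = 0.00304) and Cxcl9 (-0.78 ± 0.23, adjusted p = 0.0242).

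Markers of cell types that the biopsy could hold were read beside the members, again at the brightest probe per gene. Of all probes that were not dim, 12.9% were called in vehicle dTGR against SD and 9.18% in treated dTGR against SD. In treated against vehicle dTGR 3.53% were called. Of the markers counted in this paragraph only Cd3e, a T cell gene, was dim. Of 11 macrophage genes, 5 were higher in vehicle dTGR than in SD, led by C1qb (1.24 ± 0.17, adjusted p = 7.99e-06) and C1qc (1.07 ± 0.19, adjusted p = 0.000262), and 2 were lower, with Adgre1 at -0.63 ± 0.18 (adjusted p = 0.0251). Summed macrophage intensity was 17400 to 39300 in treated dTGR, 20200 to 41800 in vehicle dTGR and 17200 to 26900 in SD. Of 9 dendritic cell genes only Clec10a was called, higher in vehicle dTGR than in SD (1.05 ± 0.21, adjusted p = 0.000728), and its level was lower in treated than in vehicle dTGR (-0.70 ± 0.19, adjusted p = 0.0411). Of the 4 B cell genes with a probe, limma called 0 in each comparison, with 0 at an unadjusted p under 0.05, and the sums were 306 to 414 in treated dTGR, 282 to 523 in vehicle dTGR and 319 to 442 in SD. Of 10 T and natural killer cell genes 4 were lower in vehicle dTGR than in SD (among them Klrd1 by -1.01, Klrb1a by -0.90 and Cd3g by -0.78) and 3 were lower in treated dTGR than in SD. Their summed intensity was 6170 to 9210 in treated dTGR, 5200 to 7240 in vehicle dTGR and 5470 to 8740 in SD. Of 3 cardiomyocyte genes 2 were lower in vehicle dTGR than in SD, and 1 in treated dTGR. Cardiomyocyte sums were 169000 to 222000 in treated dTGR, 178000 to 197000 in vehicle dTGR and 198000 to 213000 in SD. Against SD, limma called 0 of 4 fibroblast genes, and 0 of 2 endothelium genes in vehicle dTGR and 1 (lower) in treated dTGR. Between treated and vehicle dTGR 1 fibroblast gene was called higher, 1 endothelium gene lower and 0 cardiomyocyte genes. The share of these cell types in the RT1 differences was not tested. Level at the probe and binding of the probe to another allele cannot be told apart where dTGR and SD animals differ in RT1 haplotype, which the labels do not give. The untreated SD rats also differ from dTGR in gavage, so genotype, colony and gavage cannot be told apart.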

How the data were processed

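For 28 arrays (1-colour, biotin-labelled, from 250 ng of RNA, per the labels' protocols) the authors deposited an intensity for each probe, already normalized. The submitters' processing notes name RMA, without its version, scaling factor or genome build. These intensities are linear (1.90 to 162208), and log2 was taken with no background correction or further normalization. Genes were named from the platform annotation (14824 probes with 1 symbol, 829 with several, 21032 with none). All 28 arrays and 36685 probes entered 1 linear model in R 4.3.3 with limma 3.58.1 (eBayes with trend, Benjamini-Hochberg over all probes, called at 0.05), checked on simulated data. No arrays were identical, and what the p-values measure is the spread between the labelled samples. The arrays carry no batch label. A fold against a group mean under the dim level (log2 5.65) is a lower bound. Named genes are all members, and up to 3 called genes per list and comparison with the largest differences. The members, lists and tests were chosen with earlier results of these data known. Alternatives comprised 38 settings, of which 28 left out 1 array. Promoters were read from RefSeq GRCr8, and correlations used SciPy 1.17.1. The number of arrays limits the precision.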

Additional observations from a re-analysis of the deposited data

Results flagged for a closer look

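Of 66 sets of 8 arrays (33 members in vehicle dTGR and in SD), 5 held an array far from the others, where chance gives about 1 in 20. In vehicle dTGR, RT1-N2 was 6.93 in replicate 5 (nearest array 6.43), RT1-S3 was 10.52 in replicate 1 (nearest 10.02) and RT1-M5 was 5.68 in replicate 4 (nearest 6.36). In SD, RT1-M3-1 was 6.29 in replicate 3 (nearest 7.35) and RT1-CE15 was 5.51 in replicate 7 (nearest 6.77). Groups of 12 were not tested.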

How the results depend on the processing

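Of 23 called member differences, 16 kept their call in every setting that held the probe (38, or 37 for RT1-CE5), 7 lost it in at least 1, none reversed, and 7 others were called only in some setting. Calls between treated and vehicle dTGR over all probes (921) numbered 600 with a prior without trend, 431 with only the compared groups and 2381 without vehicle replicates 6 and 7, and 392 to 1618 with 1 array left out (601 without vehicle replicate 1, 392 without 4, 451 without 5, 1606 without 6, 1618 without 7 and 481 without 8). The class I count (0) was 1 above the 30th percentile, above the median, with the brightest probe per gene and without vehicle replicates 6 and 7, and 0 to 1 with 1 array left out. The class II count (1) was 0 without trend, 0 with median centring, 0 with the compared groups only, 2 without vehicle replicates 6 and 7, and 0 to 1 with 1 array left out. Against SD with 1 array left out, vehicle dTGR had 3014 to 3614 probes called (5 to 6 of class I, 4 to 7 of class II) and treated dTGR 2015 to 2591 (4 to 6 of class I, 3 to 5 of class II). The treated class II count was 3 with median centring. The cause was not tested. No paired analysis was possible because the labels pair no rats across groups.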
